A study of Mus musculus and Mus musculus x Mus spretus with 14 samples.

Results

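A set of 5 spindle carcinoma lines of mouse skin was compared with 5 non-malignant squamous lines, the opposite ends of a cell-line series of skin tumour progression. Membership followed the phenotype label of each line, and the comparison used 11 of 14 arrays, 10 of 13 lines and the 576 of 1271 array features that name a mouse microRNA (miRNA). The study profiled miRNAs on Exiqon arrays, and its title concerns miR-203 and miR-205 in the prognosis of cutaneous squamous cell carcinoma. All lines were grown in DMEM with 10% foetal bovine serum, and 1 µg of total RNA per array was labelled with the dye Cy3.

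The non-malignant squamous group held 3 immortalized keratinocyte lines and 2 papilloma lines. C5N is a nontumorigenic single-cell clone of the keratinocyte line MCA3D, which came from a BALB/c mouse. C50 is an immortalized mouse keratinocyte line with no strain given, and NK arose by spontaneous immortalization of keratinocytes from a p53 null mouse. MSCP1 and P6 came from papillomas of Mus spretus X CBA hybrids treated with DMBA and TPA, the carcinogen and tumour promoter of skin carcinogenesis. In the spindle group, A5 and D3 came from the same tumour of a Mus spretus X CBA F1 hybrid treated repeatedly with DMBA. CARB and CARC are aggressive spindle carcinomas of NIH/Swiss mice given DMBA and TPA. H11 is a single-cell clone of a tumour that had spread to a lymph node in an F1 mouse of 129 and NIH. The 3 malignant squamous lines enter only as reference values and in the estimate of the spread: B9 shares its tumour with A5 and D3, E4 shares its tumour with H11, and PDVC57 came from a tumour of PDV cells injected into C57Bl mice. Each line had 1 array except A5, whose 2 arrays were averaged (r = 0.994 across features). The p-values therefore measure the spread between lines, which are not all independent, and strain and origin differ between the groups as well.

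Spindle carcinomas are the poorly differentiated end of skin tumour progression, where carcinoma cells lose epithelial junctions and take on a fibroblast-like shape. In epithelia, the miR-200 family represses the transcription factors Zeb1 and Zeb2, which in turn repress the miR-200 genes and the adhesion gene E-cadherin. miR-205, abundant in the basal layer of stratified epithelia, also targets Zeb1 and Zeb2, and miR-203 promotes keratinocyte differentiation by repressing p63. miR-143, miR-145 and the miR-199 and miR-214 miRNAs are typical of fibroblasts and smooth muscle, and the miR-29 family targets collagen and other matrix transcripts.

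The mature sequences of miR-205, both strands of miR-203 and the miR-200 family are printed. Members of the miR-200 family come in 2 seed groups, and both had lower means in spindle lines. Capitals mark the seed, bases 2 to 8 of the miRNA, and sequences and positions are those of RefSeq on GRCm38.p6, with the array name followed by the RefSeq arm.
miR-205 (miR-205-5p): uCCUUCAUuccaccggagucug
miR-200b (miR-200b-3p): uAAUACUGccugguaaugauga
miR-200c (miR-200c-3p): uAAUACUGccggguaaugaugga
miR-429 (miR-429-3p): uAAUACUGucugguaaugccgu
miR-200a (miR-200a-3p): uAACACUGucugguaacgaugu
miR-141 (miR-141-3p): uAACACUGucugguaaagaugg
miR-203 (miR-203-3p): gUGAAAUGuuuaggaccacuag
miR-203* (miR-203-5p): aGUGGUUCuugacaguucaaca

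miR-200b, miR-200a and miR-429 lie within 1791 bases at chr4:156053916-156055706 on the minus strand. miR-200c and miR-141 lie within 430 bases at chr6:124717917-124718346, also on the minus strand. Seed and locus cut across each other: miR-200b and miR-200c share 20 of 22 positions from different chromosomes, as do miR-200a and miR-141, whereas the neighbours miR-200a and miR-200b share 18 of 22. miR-205 lies at chr1:193507503-193507524 (minus strand), and miR-203 at chr12:112130927-112130948 (plus strand), 3′ of its passenger strand miR-203* in the same hairpin. Near-identical sequences can share signal on an array, so the separate levels of family members carry that uncertainty.

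Sequences of 6 miRNAs with higher means in spindle lines are printed for the shared miR-29 seed and for the miR-125b, miR-199 and miR-142 results.
miR-29a (miR-29a-3p): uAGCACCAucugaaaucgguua
miR-29b (miR-29b-3p): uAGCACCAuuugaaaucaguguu
miR-29c (miR-29c-3p): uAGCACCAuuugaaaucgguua
miR-125b-5p: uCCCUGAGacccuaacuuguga
miR-199a-3p/miR-199b (miR-199a-3p and miR-199b-3p): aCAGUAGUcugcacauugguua
miR-142-3p (miR-142a-3p): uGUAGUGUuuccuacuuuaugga

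miR-29a and miR-29c agree at 21 of 22 positions, and miR-29a and miR-29b at 18 of 22. The RefSeq sequences of miR-199a-3p and miR-199b-3p are identical, so that 1 feature reads loci on chromosomes 1, 9 and 2.

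The lines C5N, MSCP1 and A5 stood apart over the miRNAs. C5N had a median correlation of 0.332 with the other lines, A5 of 0.735, and the remaining lines of 0.819 to 0.909. MSCP1 had 37 miRNAs above background, against 119 to 185 in the other 12 lines, where background is the median of 8 negative control features and a miRNA is above it when more than 1 log2 unit higher. The number above background averaged 144 ± 24.6 across spindle lines and 120 ± 47.1 across non-malignant lines (SD, n = 5 each), a difference of 24.2 (exact two-sided permutation p = 0.46). The U6 RNA feature U6-snRNA-1 read 10.56 ± 0.84 in spindle and 9.09 ± 1.68 in non-malignant lines (difference 1.47, exact permutation p = 0.127, adjusted p = 0.219 over 6 tests). U6-snRNA-2 differed by 1.25 (exact permutation p = 0.159, adjusted p = 0.219), and the mean of 10 spike-ins by 0.72 (exact permutation p = 0.183, adjusted p = 0.219). Results are therefore given with all lines and without C5N, MSCP1 and A5, a choice made from earlier results of the same arrays. Where a value is given "when centred", each array was centred on the 21 miRNAs above background in all 13 lines. With all lines kept, this moved every difference by -0.96 and the median of all miRNAs from 0.03 to -0.93. Centred values are to be read against that -0.93.

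Over the 576 miRNAs, limma with Benjamini-Hochberg adjustment called 0 higher (0%) and 0 lower (0%) in spindle lines at an adjusted p under 0.05, and the lowest adjusted p was 0.262. Before adjustment, 32 miRNAs (5.56%) with a higher mean in spindle lines and 17 (2.95%) with a lower mean had a p under 0.05. The lines of both groups did not overlap for 1 miRNA that was higher in every spindle line (0.174%) and for 5 that were lower in every spindle line (0.868%). The former was miR-208b, and the latter were miR-205, miR-200a, miR-141, miR-200c and miR-203*. Without C5N, MSCP1 and A5, limma called 6 miRNAs lower (1.04%) and 1 higher (0.174%). The 6 were miR-205 and the 5 members of the miR-200 family, and the 1 was miR-143. C5N and MSCP1 were the lowest non-malignant lines for miR-205 and for each miR-200 member. A5 was the highest spindle line for miR-205 and the lowest for miR-143. Leaving these lines out thus favours these calls, which are no independent support for the differences. Without C5N and MSCP1 alone, a setting added after the data were seen, it called 7 lower (1.22%) and 0 higher (0%), the same 6 and miR-298. Of all 576 miRNAs, 318 had a higher and 258 a lower mean in spindle lines, with a median difference of 0.03, and 274 were above background in none of the 10 lines.

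**Figure D1:**
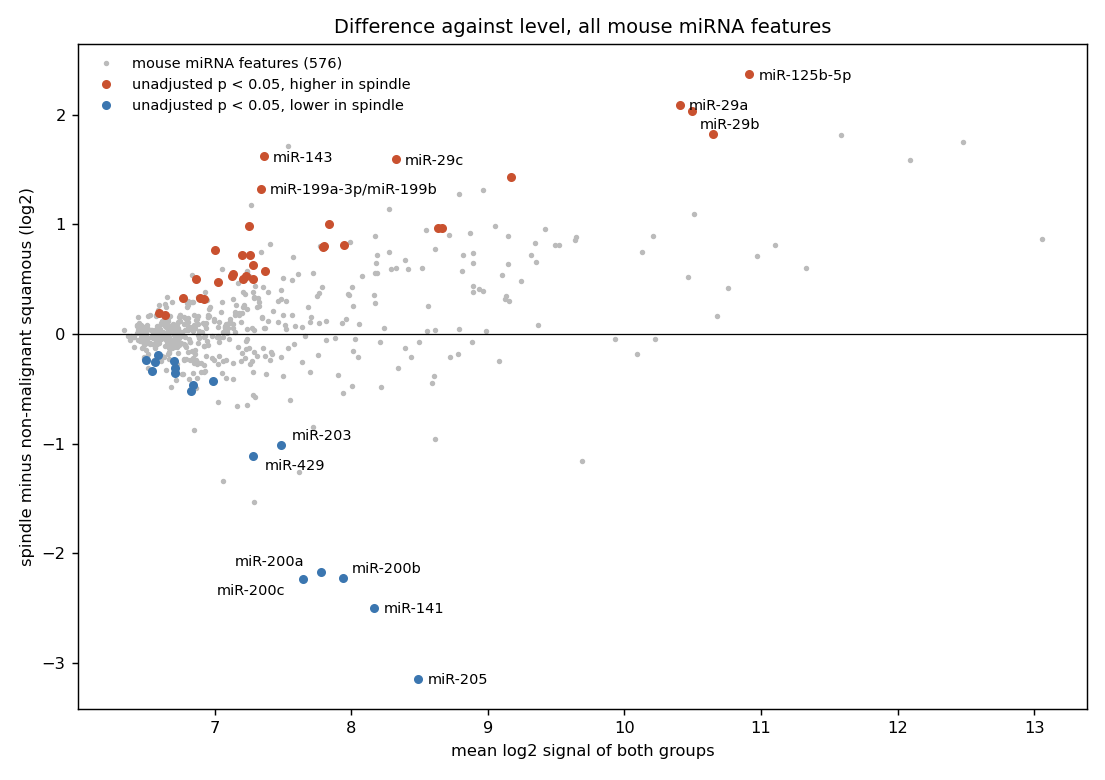
Difference in log2 signal, spindle minus non-malignant squamous (vertical axis), against the mean log2 signal of both groups (horizontal axis) for 576 mouse miRNAs. Coloured points have an unadjusted limma p under 0.05 (32 higher, 17 lower), and miR-205 and the miR-200 family lie at the lower edge, with miR-205 at -3.14.

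miR-205 had the largest difference of all 576 miRNAs. It read 8.93 in C5N, 11.48 in C50, 10.45 in NK, 7.93 in MSCP1 and 11.51 in P6. In spindle lines it read 7.39 in A5, 6.92 in D3, 6.52 in CARB, 6.88 in CARC and 6.90 in H11. Every non-malignant line lay above background and every spindle line at background, and no other of the 576 miRNAs split the lines 5 to 0 in this way. miR-205 fell by 3.14 on the log2 scale (SE 0.81), from 10.06 ± 1.59 (SD, n = 5) to 6.92 ± 0.31 (n = 5), with an exact two-sided permutation p of 0.00794, the smallest that 5 against 5 lines can give, and an adjusted p of 0.0476 over 6 tests. With the spindle lines at background this is a level at least 5.43-fold lower, measured against background plus 1 log2 unit in each spindle line. Over all 576 miRNAs limma gave it an adjusted p of 0.351. miR-205 was among the 6 tests because the title of the study of these arrays names it. Adjustment over 6 tests does not account for that choice. Leaving out any 1 of the 5 spindle lines, A5, D3, CARB, CARC or H11, ended its call in the exact test, with adjusted p of 0.0714 to 0.0952 and differences of -3.26 to -3.04. In each of these sets the groups still did not overlap for miR-205, and the exact permutation p was 0.0159. Without C5N, MSCP1 and A5 the exact permutation p was 0.0286, and without C5N and MSCP1 0.0179, the smallest that these numbers of lines allow. After adjustment over 6 tests they were 0.0857 and 0.0536, so the exact test of these sets had no room to pass unless other tests of the family did, while limma gave adjusted p of 0.01645 and 0.00772 for differences of -4.35 and -4.23. Among non-malignant lines miR-205 was lowest in C5N and MSCP1, so leaving them out favours a call. Of the malignant squamous lines, B9 read 10.94 and PDVC57 9.87, in the range of the non-malignant lines, and E4 read 6.69, in the range of the spindle lines. In RNA from whole cultures, fewer cells that express a miRNA and less of it per cell cannot be told apart.

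miR-203, the other miRNA of the study's title, did not pass. It read 7.20 in C5N, 8.27 in C50, 10.16 in NK, 6.84 in MSCP1 and 7.50 in P6, against 6.86 in A5, 6.95 in D3, 6.80 in CARB, 7.17 in CARC and 7.13 in H11. Only C50 and NK lay above background, the spindle lines were all at background, and MSCP1 lay inside the spindle range. The difference was -1.02 (SE 0.47, exact permutation p = 0.0635, adjusted p = 0.19 over 6 tests), and without NK it was -0.47. Without MSCP1 it was -1.30 and passed the exact permutation test (adjusted p = 0.0238). Its passenger strand miR-203* was lower in every spindle line, 6.19 to 6.75 against 6.80 to 7.68, yet only NK exceeded background, and the gap between the groups was 0.058.

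The miR-200 family followed miR-205. miR-200a read 8.05 in C5N, 9.89 in C50, 9.88 in NK, 7.22 in MSCP1 and 9.29 in P6. Its spindle values were 6.53 in A5, 6.94 in D3, 6.55 in CARB, 6.68 in CARC and 6.77 in H11. The groups did not overlap, and the difference of -2.17 (SE 0.48) had the smallest limma adjusted p of all miRNAs, 0.262. miR-141, its seed partner on the other chromosome, read 7.43 in C5N, 11.18 in C50, 9.96 in NK, 7.78 in MSCP1 and 10.74 in P6. In spindle lines it stood at 7.30 in A5, 7.27 in D3, 6.37 in CARB, 6.76 in CARC and 6.91 in H11. C5N was only 0.12 above A5, so the groups barely separated, although the mean difference of -2.50 (SE 0.74) was the largest of the family.

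For the second seed group, miR-200c read 7.10 in C5N, 10.39 in C50, 9.43 in NK, 7.04 in MSCP1 and 9.88 in P6. The spindle lines had 6.33 in A5, 6.75 in D3, 6.29 in CARB, 6.64 in CARC and 6.66 in H11. The groups did not overlap, with a difference of -2.23 (SE 0.65), but C5N and MSCP1 were themselves at background. miR-200b read 6.81 in C5N, 10.87 in C50, 10.21 in NK, 7.18 in MSCP1 and 10.19 in P6. Its spindle levels were 6.77 in A5, 6.95 in D3, 6.58 in CARB, 6.91 in CARC and 6.92 in H11. C5N overlapped the spindle lines, and the difference was -2.23 (SE 0.71). miR-429 read 6.76 in C5N, 8.57 in C50, 8.94 in NK, 6.93 in MSCP1 and 8.01 in P6, against 6.46 to 7.40 in spindle lines, a difference of -1.11 (SE 0.38). CARB, at 7.40, was the highest spindle line and lay above C5N and MSCP1.

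Across the family, 0 of 5 members were above background in any spindle line. C50, NK and P6 had all 5 above background, whereas C5N and MSCP1 had 1 each. MSCP1 also had the fewest miRNAs above background of any kind. The lowest non-malignant value of miR-205 was 7.93 as deposited, 9.61 after quantile normalization and 9.99 when arrays were centred on bright features. How low miR-205 read thus depended on the scaling. For the miR-200 family, the median difference was -2.23 as deposited and -2.235 after quantile normalization. It was -3.19 when centred, against -0.93 over all miRNAs. The mean level of the 5 members was 7.23 to 10.18 in non-malignant lines (median 9.62), 7.56 to 9.16 in malignant squamous lines and 6.64 to 6.91 in spindle lines, with no overlap of spindle lines with the others. All 5 members were lower, with a median difference of -2.23 against 0.03 over all miRNAs and -3.31 without C5N, MSCP1 and A5. In that smaller set, limma gave differences of -3.80 for miR-141, -3.58 for miR-200b, -3.31 for miR-200c, -2.95 for miR-200a and -1.71 for miR-429, each with an adjusted p under 0.05. C5N and MSCP1, left out there, were the lowest non-malignant lines for each member, which favours these calls. Because the spindle lines were at background, folds can be given only as lower bounds. With all lines, miR-141 was at least 3.47-fold, miR-200b at least 2.69-fold, miR-200a at least 2.36-fold and miR-200c at least 2.21-fold lower.

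**Figure D2:**
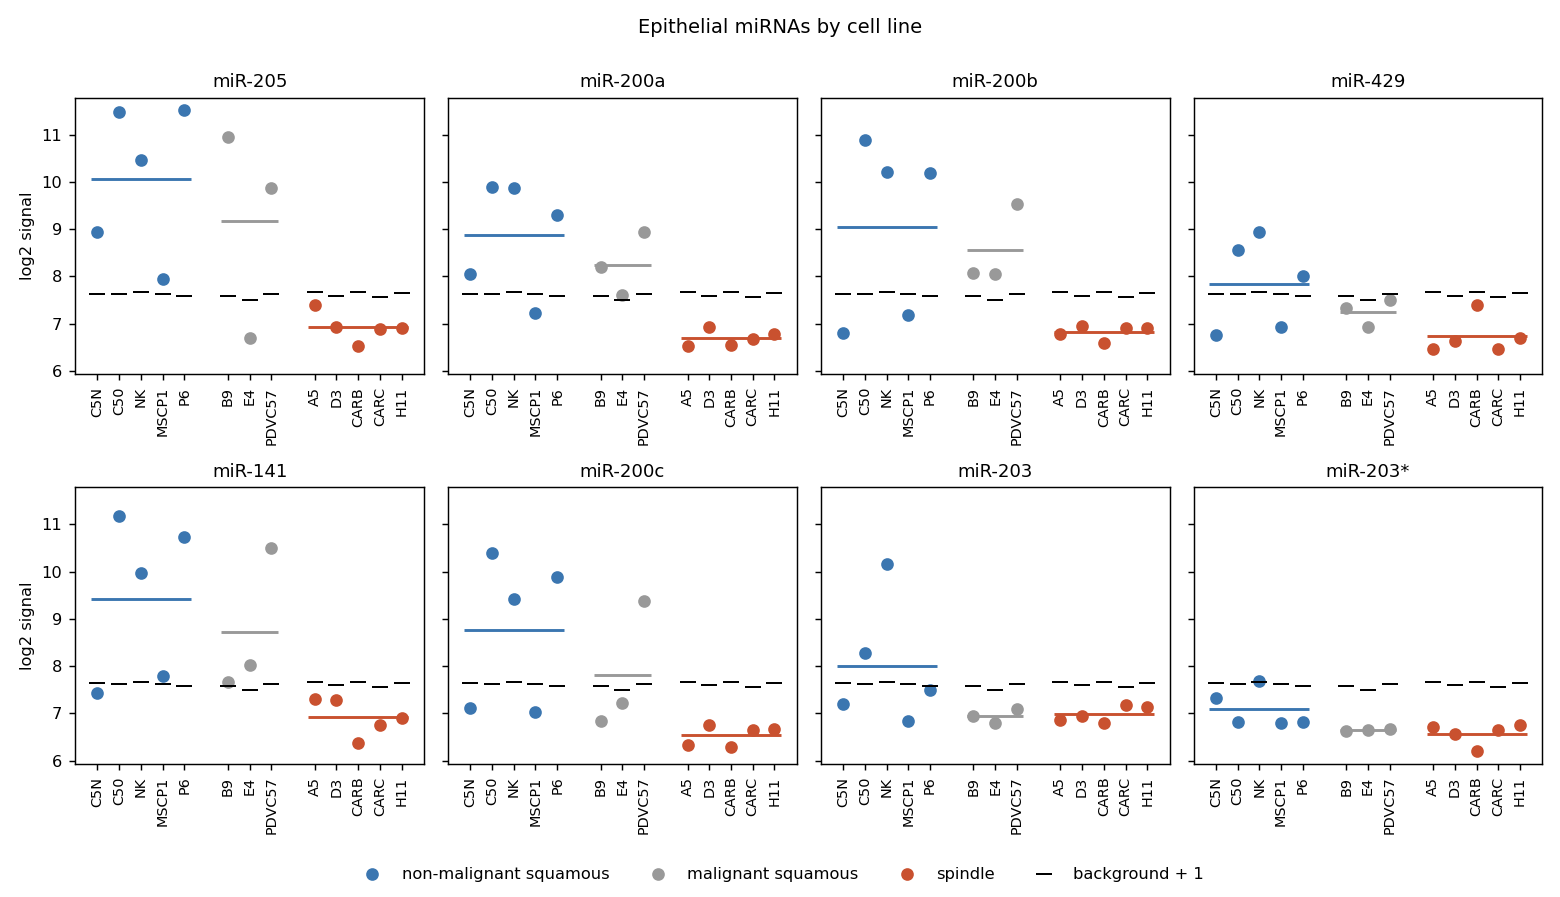
Log2 signal (vertical axis) of 8 epithelial miRNAs in each of 13 cell lines (horizontal axis, A5 the mean of 2 arrays). Points are lines, coloured bars group means and black ticks background plus 1 log2 unit. All 5 spindle lines lie under the black ticks in every panel, and among non-malignant lines the lowest values of miR-205 and of each miR-200 family member belong to C5N and MSCP1.

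Over the 10 lines, miR-205 and the family varied together in this description, whose points include the difference between the groups. miR-205 correlated with miR-141 at r = 0.969, with miR-200c at 0.966, with miR-200a at 0.964, with miR-200b at 0.934 and with miR-429 at 0.816. Among the 5 non-malignant lines alone its r was 0.79 (miR-429) to 0.967 (miR-200c) with the family, and 0.828 (miR-29a) to 0.869 (miR-29c) with the miR-29 family, C5N and MSCP1 being low for all of these. miR-203 followed less closely, at r = 0.643 with miR-205 over the 10 lines.

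The passenger strands of the family were picked out after their values were seen. With all lines the groups overlapped for each, and the means in spindle lines were higher for miR-200b* and miR-200c* and lower for miR-200a* and miR-141*. miR-200b* read 6.30 to 7.98 in non-malignant lines and 6.88 to 9.07 in spindle lines, with D3 highest at 9.07 and a difference of 0.51 (SE 0.43), which was -0.45 when arrays were centred on bright features. miR-200c* lay at background in all 10 lines, with a difference of 0.29 (SE 0.14), or -0.67 when centred. For miR-200a*, also at background throughout these 10 lines, the difference was -0.16 (SE 0.38), or -1.12 when centred. miR-141* was above background in 2 non-malignant lines, C5N at 7.72 and MSCP1 at 8.63, and in 0 spindle lines. Its difference was -0.65 (SE 0.33), -1.19 after quantile normalization and -1.61 when centred. The centred values stand against -0.93 over all miRNAs. Without A5, miR-141* and miR-200a* were lower in every remaining spindle line than in every non-malignant line. C5N and MSCP1 are the lines in which mature miR-141 was lowest among the non-malignant lines.

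Other epithelial miRNAs differed less. The clustered miR-182, miR-183 and miR-96, best known from sensory epithelia, had lower means in spindle lines for 3 of 3 members, by -0.34 for miR-183, -0.31 for miR-182 and -0.21 for miR-96, and 0 of 3 had an unadjusted p under 0.05. The spindle values overlapped the non-malignant ones for each member, with D3 at 8.69 for miR-183 and MSCP1 and C5N at 6.97 and 6.54. When arrays were centred the differences were -1.31 for miR-183, -1.27 for miR-182 and -1.17 for miR-96, against -0.93 over all miRNAs, and the groups did not overlap for any of the 3. With C5N, MSCP1 and A5 left out they differed by -0.89, -0.97 and -0.87 in the same order. For miR-96 the small difference turned to 0.012 without CARB and 0.046 without NK. Of 7 measured members of a list of other epithelial and keratinocyte miRNAs, 3 were higher and 4 lower, with a median of -0.08.

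miR-143 was the fibroblast-type miRNA with the largest difference. It lay at background in every non-malignant line, 6.48 in C5N, 6.60 in C50, 6.45 in NK, 6.73 in MSCP1 and 6.47 in P6. In spindle lines it read 6.69 in A5, 8.35 in D3, 9.31 in CARB, 9.32 in CARC and 7.18 in H11. D3, CARB and CARC were above background, H11 was between, and A5 overlapped the non-malignant lines. The difference was 1.62 (SE 0.43), at least 1.46-fold, with a limma adjusted p of 0.351, and without C5N, MSCP1 and A5 it was 2.03, with a limma adjusted p of 0.0497. miR-145, which is transcribed with miR-143, read 6.57 in A5, 7.59 in D3, 7.76 in CARB, 8.26 in CARC and 6.75 in H11, against 6.53 to 6.80 in non-malignant lines. The same 3 spindle lines were high, and over the 10 lines miR-143 and miR-145 correlated at r = 0.963. The difference of miR-145 was 0.77 (SE 0.26), or -0.19 when arrays were centred on bright features.

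The miR-199 features divided the spindle lines differently. The miR-199a-3p/miR-199b feature read 6.49 in A5, 6.95 in D3, 9.45 in CARB, 9.11 in CARC and 8.01 in H11. In the non-malignant lines it stood at 6.90 in C5N, 6.47 in C50, 6.54 in NK, 6.98 in MSCP1 and 6.49 in P6. CARB, CARC and H11 were above background, whereas A5 and D3, from 1 tumour, were in the non-malignant range, and the difference was 1.32 (SE 0.46). miR-199b* read 9.02 in CARB, 8.79 in CARC and 7.60 in H11 against 6.69 in A5 and 6.65 in D3, with only CARB and CARC above background and a difference of 0.98 (SE 0.40). The feature for miR-199a-5p, picked out after its values were seen, read 8.97 in CARB and 8.87 in CARC and 6.82 to 7.45 in the other spindle lines. D3 thus had miR-143 but not the miR-199 features above background, and H11 had the miR-199a-3p/miR-199b feature but not miR-143 above background.

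Of 9 measured fibroblast and mesenchymal miRNAs, 8 had higher means in spindle lines and 6 an unadjusted p under 0.05, with a median difference of 0.77, 1.01 without C5N, MSCP1 and A5, and -0.19 when arrays were centred on bright features. Over all miRNAs, 318 of 576 had higher means, 5.56% had a higher mean with such a p, and the median was 0.03, or -0.93 when centred. Their mean level was 6.79 to 6.96 in non-malignant and 7.13 to 8.22 in spindle lines. Smaller differences were seen for miR-145* (0.50, SE 0.19) and miR-152 (0.33, SE 0.14), which became -0.46 and -0.63 when centred. miR-152 was above background in 0 of the 10 lines. miR-214 and miR-214* were picked out after their values were seen. miR-214 was above background in 5 spindle, 4 non-malignant and 3 malignant squamous lines. Its difference was 0.72 (SE 0.37), or -0.24 when centred. The 1 member with a lower mean was miR-214* (-0.24, SE 0.12), at background in all 10 lines.

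The miR-29 family had higher means in spindle lines under every scaling tried. miR-29a read 8.34 in C5N, 9.52 in C50, 9.37 in NK, 8.45 in MSCP1 and 11.13 in P6. Its spindle values were 12.34 in A5, 12.32 in D3, 10.97 in CARB, 10.42 in CARC and 11.22 in H11. P6 lay among the spindle lines and the other 4 non-malignant lines below them all, and the difference was 2.09 (SE 0.64). miR-29b ran from 7.88 in C5N to 11.65 in P6 among non-malignant lines, with 8.26 in MSCP1, 9.69 in NK and 9.91 in C50, and from 10.92 in A5 to 12.38 in D3 among spindle lines. Again only P6 overlapped, and the difference was 2.04 (SE 0.70). miR-29c read 6.60 in C5N, 8.06 in C50, 7.40 in NK, 7.00 in MSCP1 and 8.57 in P6, against 8.31 in A5, 8.98 in D3, 8.99 in CARB, 9.79 in CARC and 9.54 in H11. It was above background in all 5 spindle and in 2 non-malignant lines, C50 and P6, with a difference of 1.59 (SE 0.43).

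The limma adjusted p was 0.396 for miR-29a and miR-29b and 0.351 for miR-29c. Without P6 all 3 members were higher in every spindle line than in every remaining non-malignant line. With C5N, MSCP1 and A5 left out, miR-29a differed by 1.23, miR-29c by 1.31 and miR-29b by 1.25. The family was also high in malignant squamous lines, with a mean level of 10.58 to 10.95, against 10.40 to 11.23 in spindle lines and 7.61 to 10.45 in non-malignant lines. U6-snRNA-1 and the number of miRNAs above background were both lowest in C5N or MSCP1, where miR-29a was lowest too; their part in this difference was not tested.

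miR-125b-5p, an abundant miRNA of epidermis and mesenchyme, had the largest positive difference of all 576 miRNAs. It read 7.57 in C5N, 9.09 in C50, 10.11 in NK, 9.92 in MSCP1 and 11.96 in P6. In spindle lines it was at 14.18 in A5, 12.55 in D3, 11.16 in CARB, 10.81 in CARC and 11.80 in H11. P6 again overlapped the spindle range, and A5 exceeded all other lines. The difference was 2.37 (SE 0.88, limma adjusted p = 0.477), and 1.19 without C5N, MSCP1 and A5. Of 7 related miRNAs (the families of miR-10, miR-125, and miR-99 with miR-100), 6 had a higher mean with a median of 0.12, which was -0.84 when arrays were centred and -0.13 without those 3 lines. Over all miRNAs, 318 of 576 were higher, with a median of 0.03, or -0.93 when centred.

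**Figure D3:**
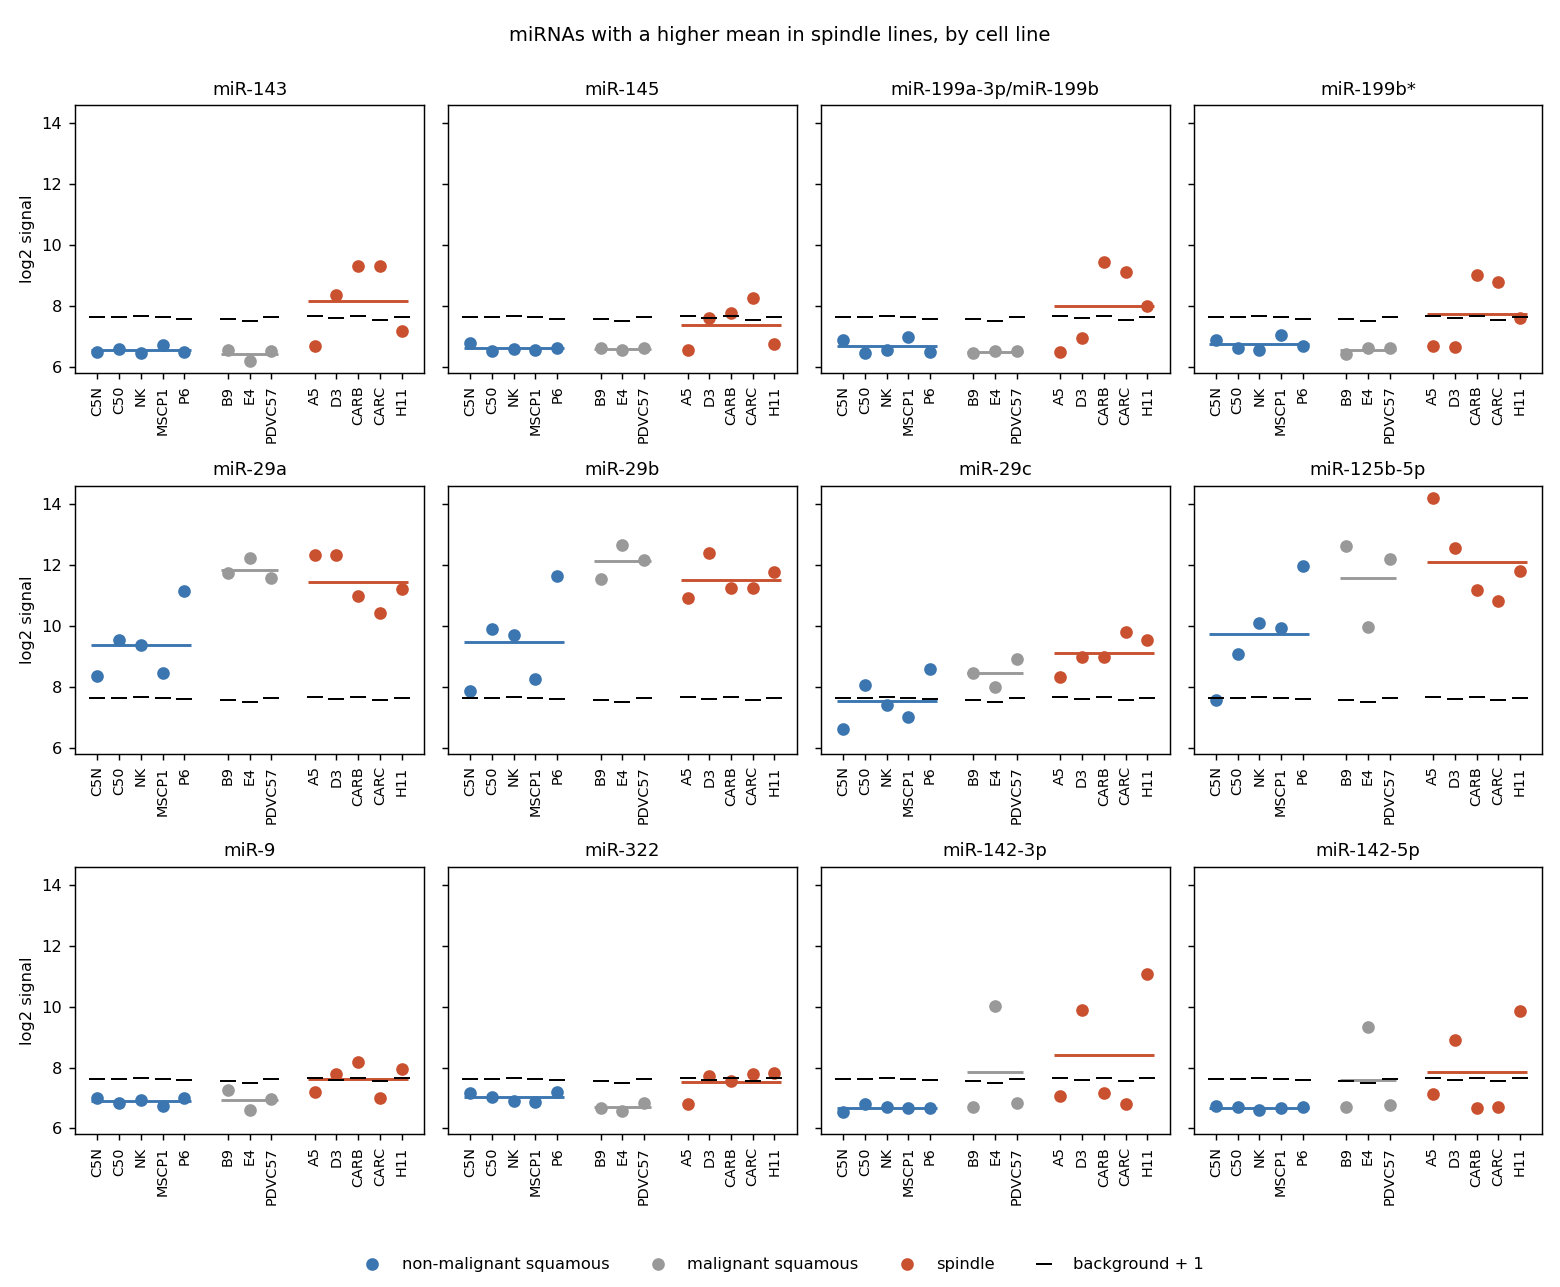
Log2 signal (vertical axis) of 12 miRNAs with higher means in spindle lines, in each of 13 cell lines (horizontal axis, A5 the mean of 2 arrays). Points are lines, coloured bars group means and black ticks background plus 1 log2 unit. D3, CARB and CARC are high for miR-143, and D3, H11 and E4 for miR-142. CARB and CARC are high for the miR-199 features, and H11 is above background for miR-199a-3p/miR-199b but not for miR-199b*. The differences of miR-145, miR-9 and miR-322 turned negative when arrays were centred on bright features, where the median of all miRNAs was -0.93.

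Smaller positive differences came from dim miRNAs that exceeded background in 1 to 3 spindle lines and in 0 non-malignant lines. miR-9, abundant in neural tissue, read 7.19 in A5, 7.79 in D3, 8.18 in CARB, 6.99 in CARC and 7.94 in H11, against 6.72 to 7.01 in non-malignant lines. Only CARC overlapped them, and the difference was 0.72 (SE 0.23), or -0.24 when arrays were centred. miR-149 read 8.01 in A5, 7.62 in D3, 7.75 in CARB, 7.51 in CARC and 7.08 in H11, against 6.77 to 7.15 in non-malignant lines. H11 alone lay in their range, and the difference was 0.63 (SE 0.20), or -0.33 when centred. miR-350 differed by 0.53 (SE 0.18), or -0.43 when centred. miR-208b, a miRNA of slow muscle, owed its non-overlap to a gap of 0.015, with CARB at 8.40, the other spindle lines at 6.63 to 6.88 and non-malignant lines at 6.53 to 6.62, and its difference of 0.53 became -0.43 when centred. In the opposite direction, miR-463* differed by -0.34 (SE 0.11) and was at background in all 10 lines.

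The cluster of miR-322 and miR-503 on the X chromosome, which holds relatives of miR-16, had 6 of 7 members with a higher mean, a median of 0.50, and 3 at an unadjusted p under 0.05, and the median was -0.46 when arrays were centred, against 0.03 and -0.93 over all miRNAs, of which 318 of 576 were higher and 5.56% had such a p. miR-322 read 7.72 in D3, 7.56 in CARB, 7.78 in CARC and 7.82 in H11, with A5 apart at 6.79, against 6.85 to 7.19 in non-malignant lines. All spindle lines but A5 were higher than every non-malignant line, the difference was 0.50 (SE 0.20), and without C5N, MSCP1 and A5 it was 0.68 with a limma adjusted p of 0.06395. It was -0.46 when arrays were centred. A5 was at the other extreme for miR-542-3p of the same cluster, at 10.07 against 7.54 to 8.22 in the other spindle lines, with a difference of 1.01 (SE 0.43) that was 0.26 without the 3 lines. miR-450a-5p differed by 0.55 (SE 0.20), or -0.41 when centred. In the family of miR-15, miR-16, miR-195 and miR-497, 4 of 5 members had a higher mean, with a median of 0.61 that was -0.35 when centred and -0.13 without the 3 lines, and miR-195 differed by 0.79 (SE 0.33), or -0.17 when centred.

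For several abundant families the mean differences, none of them past an adjusted test, were close to 0 or of the opposite sign without C5N, MSCP1 and A5. All 9 let-7 members, which repress growth genes such as Hmga2 and Ras, had higher means, with a median difference of 0.88. Only let-7i had an unadjusted p under 0.05 (1 of 9). Over all miRNAs, 318 of 576 were higher, 5.56% had a higher mean with such a p, and the median was 0.03. The let-7 median was 0.17 without the 3 lines. When arrays were centred it was -0.08, against -0.93 over all miRNAs. let-7e read 8.00 in C5N and 9.41 in MSCP1 against 11.68 to 12.37 in the other non-malignant lines and 11.10 to 14.26 in spindle lines. Its difference was 1.82 (SE 0.86) with all lines and 0.06 without the 3. let-7c went from 1.09 (SE 0.65) to 0.14 and let-7i from 0.96 (SE 0.41) to 0.43. miR-221, which targets the cell-cycle inhibitor p27, differed by 1.32 (SE 0.64) and 0.33 without the 3 lines. miR-222, its neighbour, differed by 0.54 (SE 0.65), by 0.01 without the 3 lines and by -0.42 when centred.

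The clustered miR-27, miR-24 and miR-23 miRNAs had a median difference of 0.16 over 5 members with all lines, -0.37 after quantile normalization, -0.80 when arrays were centred and -1.12 without the 3 lines, where 0 of 5 were higher. Their mean level was 12.15 at the highest in non-malignant lines and 11.25 in spindle lines. The miR-30 family had 1 of 5 members higher, with a median of -0.13, and -0.58 without the 3 lines. For the cluster from miR-17 to miR-92a and its paralogs, 8 of 13 were higher with a median of 0.05, -0.20 after quantile normalization, -0.91 when centred and -0.40 without the 3 lines. All 4 miR-181 members were higher, by 0.40 at the median and -0.56 when centred. miR-34 and the related miR-449 had 5 of 7 higher with a median of 0.07, -0.04 after quantile normalization and -0.89 when centred. Over all miRNAs, 318 of 576 were higher, with a median of 0.03, 0.0003 after quantile normalization and -0.93 when centred.

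**Figure D4:**
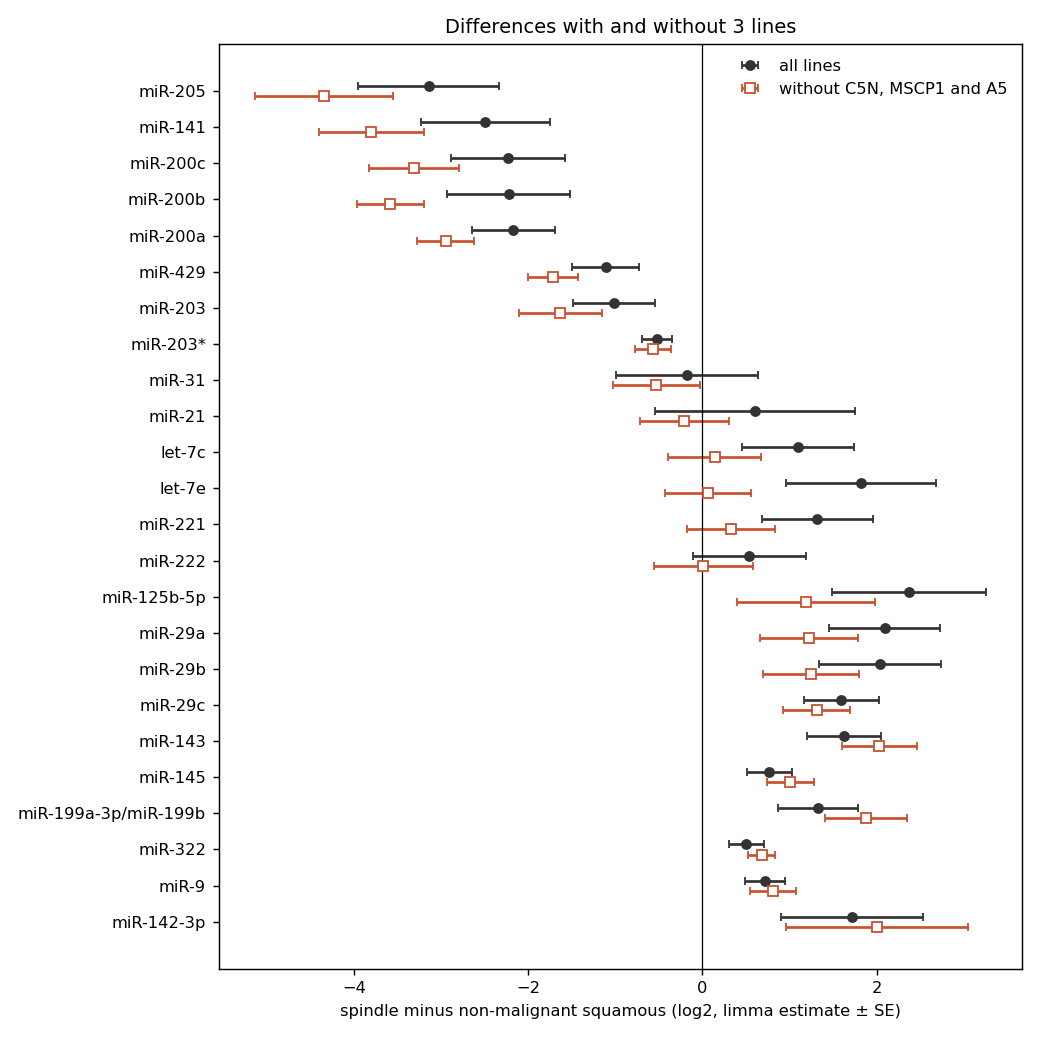
Difference in log2 signal, spindle minus non-malignant squamous, for 24 miRNAs (rows), as limma estimates with SE bars, with all lines (filled circles) and without C5N, MSCP1 and A5 (open squares). Without the 3 lines, miR-205, the miR-200 family, miR-143 and the miR-199 feature moved away from 0. let-7c, let-7e, miR-221 and miR-125b-5p moved towards it. Centring on bright features would shift every filled circle by -0.96, and it was not applied without the 3 lines.

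The skin tumour miRNAs miR-21 and miR-31 did not separate the groups. miR-21, induced in skin tumours and inflammation, read 7.01 in C5N, 13.01 in C50, 11.45 in NK, 10.21 in MSCP1 and 13.47 in P6. Among spindle lines it read 8.40 in A5, 12.52 in D3, 12.50 in CARB, 11.78 in CARC and 12.95 in H11. C5N and A5 were the lowest lines of their groups, and the difference of 0.60 (SE 1.15) turned to -0.21 without the 3 lines and -0.36 when centred. miR-31 differed by -0.18 (SE 0.81), with A5 lowest at 7.61, and by 0.42 without A5. Of the 6 members of this list, 3 were higher, with a median of 0.07 that was -0.89 when centred.

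Among 6 marker miRNAs of blood cells, the 2 arms of miR-142 were above background in 2 spindle lines, D3 and H11. miR-142-3p, a miRNA of all haematopoietic cells, read 6.54 in C5N, 6.82 in C50, 6.70 in NK, 6.68 in MSCP1 and 6.68 in P6. In spindle lines it read 7.06 in A5, 9.89 in D3, 7.15 in CARB, 6.81 in CARC and 11.08 in H11. D3 and H11 alone were above background, the malignant squamous line E4, from the tumour of H11, read 10.01, and B9, from the tumour of D3, read 6.72. The difference was 1.72 (SE 0.81, limma adjusted p = 0.568). miR-142-5p from the other arm of the hairpin had the same lines high, 8.91 in D3, 9.86 in H11 and 9.33 in E4. Of the other 4 blood markers, miR-144, miR-223 and miR-451 were above background in none of the 10 lines, and miR-150 read 6.74 to 7.74 in spindle lines. The mean level of the 6 markers was 6.64 to 6.82 in non-malignant and 6.71 to 8.03 in spindle lines.

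Both endothelial markers, the arms of miR-126, were above background in 0 of the 10 lines. Muscle markers averaged 6.72 to 6.90 in non-malignant and 6.85 to 7.24 in spindle lines, with 5 of 6 higher and a median of 0.18, or -0.78 when centred. Neural markers averaged 6.61 to 6.98 and 6.79 to 7.40, with 5 of 5 higher and a median of 0.30, or -0.66 when centred. Of 13 pluripotency markers, 3 were higher with a median of -0.08, and the liver miRNA miR-122 differed by -0.36. In the imprinted Dlk1-Dio3 cluster, active in fetal mesenchyme, 29 of 39 members were higher with a median of 0.08, or -0.88 when centred. Over all miRNAs the median was 0.03, or -0.93 when centred, and 318 of 576 were higher. The Dlk1-Dio3 median was near these values, whereas the muscle and neural medians lay above them, the neural one most. Of the neural markers, 3 of 5 were above background in none of the 10 lines, and of the muscle markers 3 of 6. Of the Dlk1-Dio3 members, 31 of 39 were above background in none of the 10 lines. Whether other cells in the cultures contributed to these levels was not tested.

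Counted by detection rather than by mean, 6 of 576 miRNAs were above background in at least 3 more non-malignant than spindle lines. They were miR-205 and the 5 members of the miR-200 family. In the other direction, 12 of 576 miRNAs were above background in at least 3 more spindle lines. They were miR-143, miR-145, the miR-199a-3p/miR-199b feature, miR-9, miR-9*, miR-149, miR-322, miR-29c, miR-125b-3p, miR-181a, miR-365 and miR-713. MSCP1, with 37 miRNAs above background in all, adds few to the non-malignant counts.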

How the data were processed

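The deposited values, 1271 features by 14 arrays, were taken as log2 signals, a scale read from their range of 5.93 to 15.21, since the sources used here give neither the authors' scale nor their scanner, background correction or normalization. Per the labels' protocols, a Qiagen miRNA kit gave total RNA, which was labelled with the Exiqon kit. No further scaling was applied. Both A5 arrays were averaged. The 576 features naming a mouse miRNA were fitted with limma 3.58.1 under R 4.3.3 (lmFit, then eBayes with intensity trend, 13 lines in 3 phenotype groups, Benjamini-Hochberg over 576), and the fit was tested on simulated data. The 6 single values (miR-205, miR-203, both U6 features, the spike-in mean and the number of miRNAs above background) had exact two-sided permutation tests over 252 assignments, in Python 3.11.15. Background was the median of 8 negative controls, with a margin of 1 log2 unit. The number of arrays limits the precision.

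Named were miR-203, miR-205, every miRNA whose groups did not overlap, the 8 smallest p in each direction, and up to 6 members of each of 24 lists in order of p, with the brightest feature standing for a miRNA. Members and lists were chosen with earlier results of these data known. For 21 array names looked up in the RefSeq miRNA table, 20 were found. Alternatives were quantile normalization, centring on the 21 miRNAs bright in all lines, other filters, weights, blocks and covariates, and leaving out lines.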

Additional observations from a re-analysis of the deposited data

Results flagged for a closer look

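A group of 5 lines was listed when the gap between its highest or lowest line and the next, divided by the range, exceeded 0.71 (Dixon's criterion). This held for 9 of 96 groups of values checked. The criterion's rate of about 1 in 20 is for independent normal values. These groups share the same lines and many lie near background, so the count cannot be set against that rate. A5 accounted for 4 of the 9: it was lowest among spindle lines for miR-21 (8.40, next 11.78) and miR-322 (6.79, next 7.56), and highest for miR-542-3p (10.07, next 8.21) and miR-141* (7.53, next 6.76). CARB was highest among spindle lines for miR-208b (8.40, next 6.88) and miR-429 (7.40, next 6.69). D3 was highest for U6-snRNA-2 (14.77, next 12.73). Among non-malignant lines, NK was highest for miR-145* (7.01, next 6.56), and MSCP1 had the fewest miRNAs above background (37, next 129).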

How the results depend on the processing

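limma called 0 miRNAs with all lines. The count called lower was 6 without C5N, MSCP1 and A5, 7 without C5N and MSCP1, 6 with array weights (whose estimate did not converge), 6 with centring, 5 with dim features left out, 2 with quantile normalization, and 0 to 1 without single lines (1 without MSCP1, miR-200a). The count called higher was 1 without the 3 lines, 3 with array weights, 1 with dim features left out, and 0 without any single line. The other settings, including tumour of origin as a random block and the Mus spretus cross as a covariate, called 0. Leaving out C5N, MSCP1 and A5 favours the calls of miR-205, the miR-200 family and miR-143, as described above. With centring, differences were still tested against 0, although the median of all miRNAs was then -0.93. Non-overlapping miRNAs numbered 2 higher with quantile normalization and with the first A5 array alone, and 0 higher and 9 lower when centred. Without single lines they numbered 1 to 10 higher (10 without A5, 9 without P6) and 5 to 10 lower (10 without A5 and without MSCP1). Without the 3 lines they were 14 and 25, and without C5N and MSCP1 3 and 16, where fewer lines leave less to overlap.

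miR-205 had no exact-test call without the 3 lines (-4.35) and without C5N and MSCP1 (-4.23), where p was the smallest possible and the number of lines left no room for a call of miR-205 alone after adjustment. It lost the call without each spindle line, where the groups still did not overlap (-3.68 to -2.78 over all single lines left out). miR-203 gained one when centred (-1.98, exact permutation adjusted p = 0.0476) and without MSCP1 (-1.30, with -1.30 to -0.47 over single lines). The centred test was still made against 0, while the median of all miRNAs was then -0.93. The spike-in difference became -0.24 when centred, and that of miRNAs above background -7 with quantile normalization and -0.33 without C5N and MSCP1.

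With all lines, centring moved every difference by -0.96, and the median of all miRNAs from 0.03 to -0.93. It reversed miR-208b (-0.43), miR-9 (-0.24), miR-149 (-0.33), miR-145 (-0.19), miR-350 (-0.43), miR-145* (-0.46), miR-152 (-0.63), miR-222 (-0.42), miR-21 (-0.36), miR-322 (-0.46), miR-450a-5p (-0.41), miR-195 (-0.17), miR-200b* (-0.45), miR-200c* (-0.67) and miR-199a-5p (-0.14). Array weights reversed miR-222 (-0.061) and miR-21 (-0.38). Leaving out C5N and MSCP1 reversed miR-222 (-0.23) and miR-21 (-1.01), and leaving out the 3 lines reversed miR-21 (-0.21). Without single lines, miR-21 reached -0.41 (C5N) to 1.41, miR-31 -0.68 to 0.42 (A5; 0.16 without C50, 0.13 without P6) and miR-96 -0.55 to 0.046 (NK; 0.012 without CARB). The cause of these moves was not tested. No paired analysis was possible because the labels give no replicate numbers shared by lines of both groups.

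Strain, tumour of origin and phenotype are partly tied together across 10 lines, and 1 array per line leaves technical error unmeasured outside A5. Levels within 1 log2 unit of background carry little order, so the size of differences against a group at background is uncertain. Of the 5 non-malignant lines, C5N correlated least with the other lines and MSCP1 had the fewest miRNAs above background. With 1 array each, line and array cannot be told apart.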
